A study of Rattus norvegicus with 25 samples.

Results

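Spiny projection neurons are the output neurons of the striatum. The genes described here are markers of their identity, among them transcription factors, signalling enzymes, receptors and channels. The list holds 35 genes taken by symbol, of which 34 were present in the count table of 28909 gene names. Arpp19 was not matched and is not analysed here. All 34 passed the filter on low counts and were among the 14142 genes tested. Of these, 16 mark spiny projection neurons of both output pathways, 9 mark the direct pathway, 8 mark the indirect pathway, and Calb1 marks the matrix compartment.

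The tissue was the striatum on the lesioned side of 25 female Sprague Dawley rats, 1 library of polyadenylated RNA per rat. Every rat carried a 6-OHDA lesion, made with a toxin that kills dopamine neurons, and every rat received levodopa at 6 mg/kg once a day for 14 days, so levodopa and the lesion were common to all groups. The groups were levodopa alone (n = 5), levodopa with trapidil at 7.5 mg/kg given 2 times a day (n = 10), and levodopa with trapidil at 15 mg/kg given 2 times a day (n = 10). Striatum was taken on day 15, around 1 hour of dosing, and no unlesioned or levodopa-free rats were among the 25. Levodopa is the precursor of dopamine, and the series title names it together with benserazide, which blocks its breakdown outside the brain. Trapidil is a vasodilator known as a phosphodiesterase inhibitor and an antagonist of platelet-derived growth factor signalling.

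Dopamine acts on the direct pathway through the D1 receptor, which raises cAMP by way of the G protein subunit Golf and adenylyl cyclase 5. It acts on the indirect pathway through the D2 receptor, which lowers cAMP, while the adenosine receptor Adora2a of the same cells raises it. The transcription factors on the list set and keep the identity of these cells, and many of the other genes carry or modulate the cAMP signal. Levels below are in CPM, the deposited read counts scaled to a common library size. CPM is not corrected for gene length, so levels are compared between animals and not between genes.

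The upstream sequences of 2 members are shown because Gpr6 and Sfxn1 gave the smallest p among the indirect and direct genes at 15 mg/kg, and because cAMP, which trapidil and dopamine signalling both bear on, acts on genes through the cAMP response element TGACGTCA. The sequences cover 250 bases before the gene start, from RefSeq on the GRCr8 build, on the minus strand for both genes: chr20:46075252-46075501 for Gpr6 and chr17:10527564-10527813 for Sfxn1. Capitals mark the cAMP response element.
Gpr6: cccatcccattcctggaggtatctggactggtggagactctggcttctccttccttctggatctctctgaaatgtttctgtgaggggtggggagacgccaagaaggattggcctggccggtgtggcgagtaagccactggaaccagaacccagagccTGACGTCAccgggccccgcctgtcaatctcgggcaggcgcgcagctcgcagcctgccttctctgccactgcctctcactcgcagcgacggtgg
Sfxn1: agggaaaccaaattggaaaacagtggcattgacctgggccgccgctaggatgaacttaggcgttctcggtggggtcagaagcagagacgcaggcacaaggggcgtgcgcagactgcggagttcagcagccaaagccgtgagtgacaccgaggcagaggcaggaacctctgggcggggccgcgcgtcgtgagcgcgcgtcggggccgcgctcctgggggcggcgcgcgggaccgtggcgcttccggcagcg
The element lies 93 bases before the start of Gpr6. Of 25 promoters of the 24 members with an entry (Ano3 had 2 promoters), Gpr6's was the 1 that held TGACGTCA on either strand, against 1.59% of all 33469 promoters searched over the same length. The shorter core TGACG, which the full element contains, was found on either strand in the promoters of Gpr6 and Slc35d3, against 18.2% of all. TATAAA, also searched on either strand, was found in 1 promoter, that of Foxp1, against 12.9% of all. The Foxp1 match lies on the strand opposite to the gene. These are matches of letters, and no binding was measured.

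All 34 members were read in every animal, with raw counts of at least 13 (Upb1). Summed over the members, levels ran from 18336 to 22755 CPM in 24 of the 25 animals. Levodopa replicate 2 stood apart at 14677 CPM. It had the lowest value of all 25 animals for 26 of the 34 members and lay below its own group's median for 30. The same animal had the highest summed level of the 12 oligodendrocyte markers, at 19950 CPM, and of the 10 astrocyte markers, at 7421 CPM. In the other 4 levodopa animals those sums ran from 10921 to 14128 CPM and from 3812 to 4802 CPM. Its mitochondrial reads were 17.3% of the total, against 7.62% to 12.9% in the other 4. Its library of 17219024 reads was within the range of the series, 10838513 to 20532290 reads. Whether other tissue or RNA quality accounts for the low values in this animal was not tested. In bulk tissue, fewer cells of a type and less RNA per cell cannot be told apart. The members' fold changes at 15 mg/kg are therefore also given without this animal, and those at 7.5 mg/kg are summarised without it over all members.

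**Figure D1:**
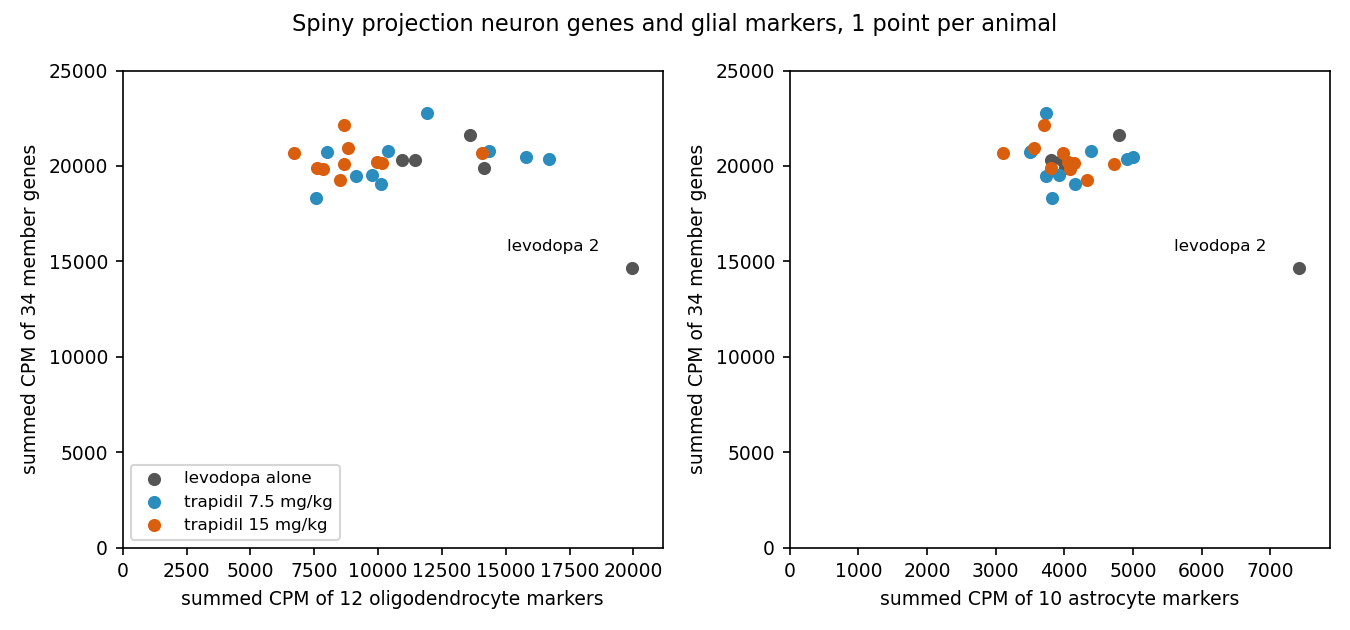
Summed CPM of the 34 spiny projection neuron genes (vertical axis) against the summed CPM of 12 oligodendrocyte markers (left) and 10 astrocyte markers (right), 1 point per animal, coloured by group. Levodopa replicate 2, at 14677 CPM, lies below the other 24 animals, which run from 18336 to 22755 CPM, and to the right of them in both panels.

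With 15 mg/kg trapidil, none of the 34 identity genes passed the test against levodopa alone. Their median absolute log2 fold change was 0.110, close to the 0.113 of all genes tested. Their log2 fold changes had a median of 0.10 and ran from -0.41 (Cnr1) to 0.58 (Upb1), and 28 of 34 were above 0, against 50.2% of all genes tested. edgeR's quasi-likelihood test with Benjamini-Hochberg adjustment over all genes called 0 of 34 at an adjusted p under 0.05, beside 1.31% of all genes. At an unadjusted p under 0.05, 6 members were higher and 0 lower (Sfxn1, Asic4, Foxp2, Arpp21, Gpr6 and Meis2), beside 8.26% of all genes higher and 11.2% lower. DESeq2 also called 0, beside 627 of all 14142 genes, and limma-voom called 1, Arpp21, beside 715 of all genes. The 95% intervals of 32 of 34 members lay within a 1.5-fold change in either direction, the exceptions being Cnr1 and Upb1, and 15 lay within 1.25-fold. No member had values in the 15 mg/kg and levodopa animals that did not overlap, beside 0.297% of all genes wholly higher and 0.41% wholly lower.

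The excess of positive over negative fold changes was absent without levodopa replicate 2, an animal picked out by the members' own low values. Without it, 17 of 34 members had a positive log2 fold change at 15 mg/kg and the median was 0.01. The sign of 11 members differed between the 2 fits, and edgeR again called 0. The unadjusted p stayed under 0.05 for 4 of the 6 named above, Foxp2, Arpp21, Sfxn1 and Asic4, and was under 0.05 in the other direction for Cnr1. The share of all genes under 0.05 in that fit is not given here. The intervals of 32 members lay within 1.5-fold and of 23 within 1.25-fold.

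**Figure D2:**
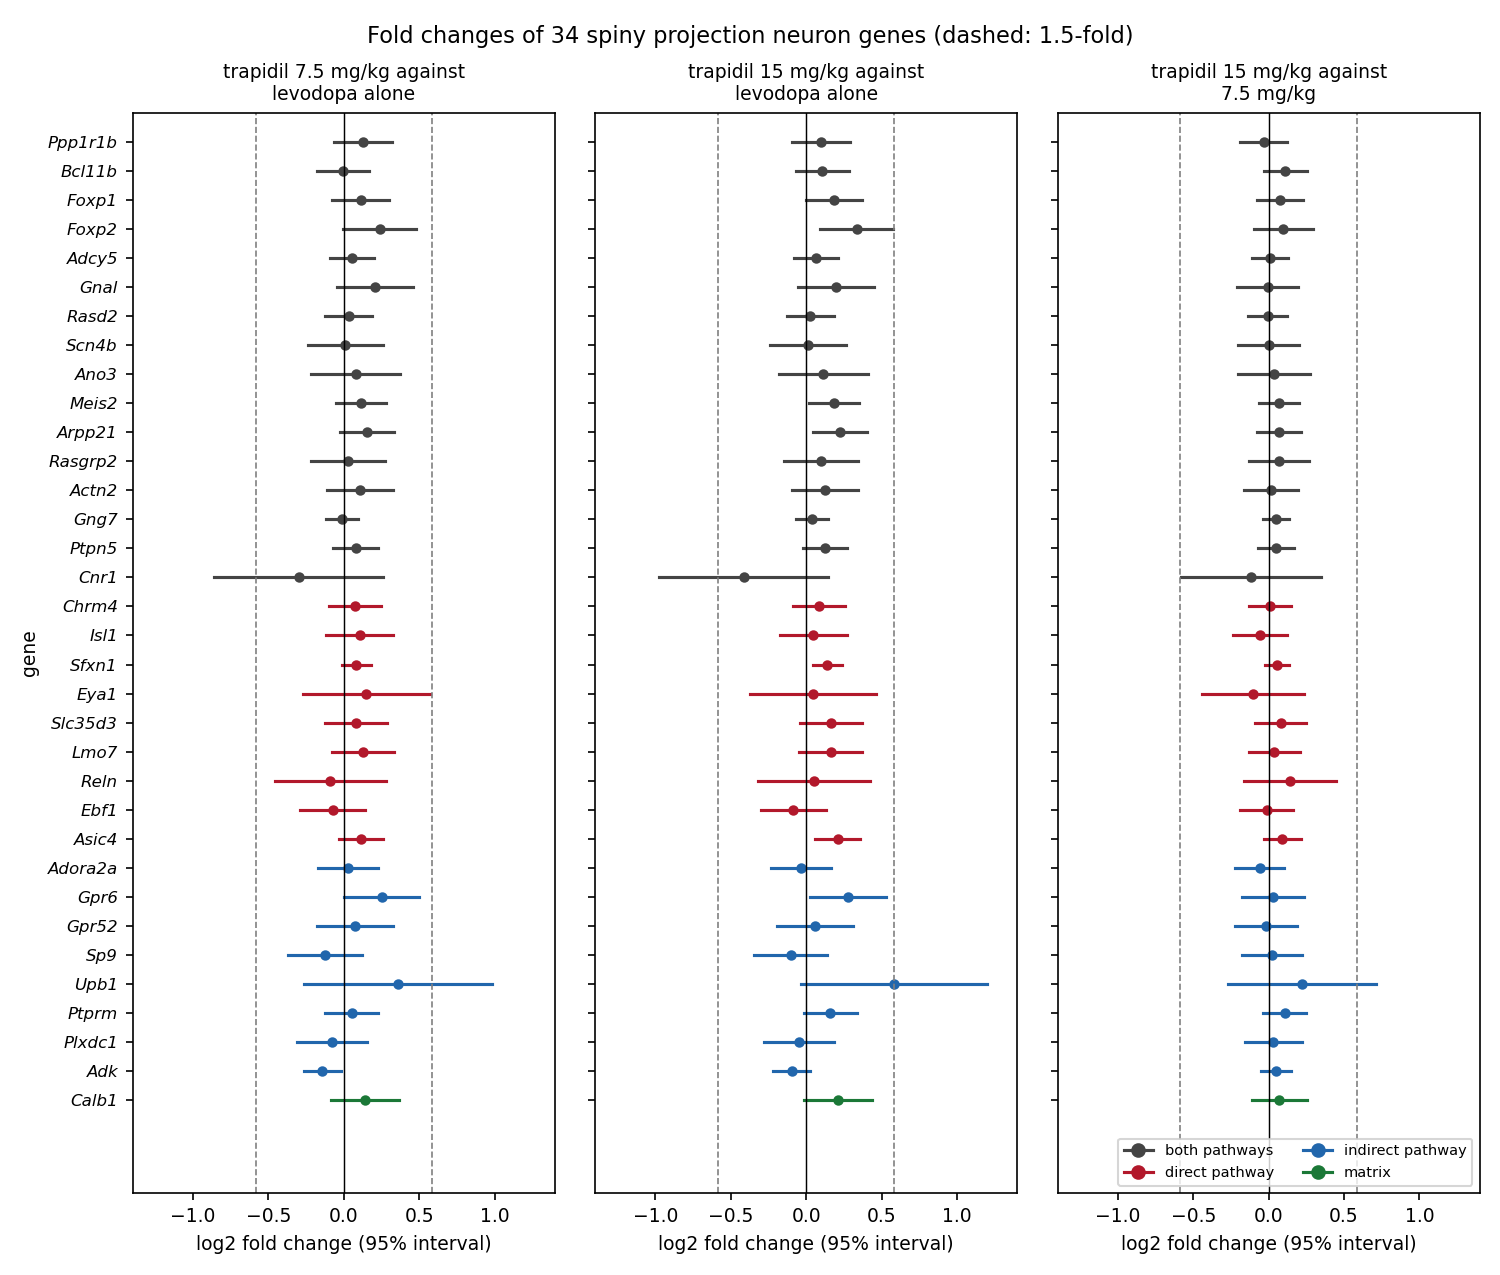
Log2 fold change of each of the 34 genes with its 95% interval from edgeR, for 7.5 mg/kg against levodopa alone (left), 15 mg/kg against levodopa alone (middle) and 15 against 7.5 mg/kg (right), coloured by pathway. Dashed lines mark a 1.5-fold change; against levodopa alone, the intervals of Cnr1 and Upb1 reach past them in both panels.

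The core cAMP signalling genes shared by both pathways overlapped across the groups. Ppp1r1b encodes DARPP-32, the phosphoprotein that relays cAMP signals to protein phosphatase 1. It read 5744, 3366, 4294, 4525 and 4369 CPM in the levodopa animals, with a lowest, median and highest value of 3945, 4875 and 5628 CPM in the 7.5 mg/kg animals and 4357, 4756 and 5427 CPM in the 15 mg/kg animals. Levodopa replicate 1 was the highest of all 25 and replicate 2 the lowest, so the levodopa group spanned both trapidil groups. The log2 fold change of Ppp1r1b was 0.10 ± 0.09 (SE) at 15 mg/kg (95% interval -0.09 to 0.29, adjusted p = 0.594) and 0.13 ± 0.09 at 7.5 mg/kg (adjusted p = 0.594), against levodopa. At 15 mg/kg it was 0.02 ± 0.09 when levodopa replicate 2 was left out. Adcy5, the adenylyl cyclase of these neurons, read 1939, 1258, 1877, 1856 and 1889 CPM in the levodopa animals. Its lowest, median and highest values were 1690, 1814 and 2081 CPM in the 7.5 mg/kg animals and 1745, 1827 and 1993 CPM in the 15 mg/kg animals. Apart from levodopa replicate 2 the groups overlapped closely, and the log2 fold change at 15 mg/kg was 0.07 ± 0.07 (95% interval -0.08 to 0.21, adjusted p = 0.653), and -0.03 ± 0.05 without that animal.

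Gnal encodes the alpha subunit of Golf and Gng7 its gamma subunit. Gnal read 165, 68.7, 172, 164 and 165 CPM in the levodopa animals, with medians of 170 CPM in the 7.5 mg/kg animals and 165 CPM in the 15 mg/kg animals. The next lowest of the 25 animals after levodopa replicate 2 was at 143 CPM, and leaving that replicate out took the log2 fold change at 15 mg/kg to 0.02 ± 0.06, against 0.20 ± 0.12 with it. Gng7 was at 2018, 2236, 1782, 1881 and 1877 CPM in the levodopa animals, and was the member that varied least over the 25 animals, with a coefficient of variation of 5.71%. In contrast to most of the list, levodopa replicate 2 had the highest Gng7 value of all. The log2 fold change of Gng7 at 15 mg/kg was 0.04 with that animal and 0.09 without it.

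None of the transcription factors passed the test. At 15 mg/kg the log2 fold changes of Foxp2, Foxp1, Bcl11b, Meis2 and Isl1 were above 0 and those of Ebf1 and Sp9 below 0, with Foxp2 the most positive. Foxp2, a forkhead factor of striatal and cortical projection neurons, read 63.3, 52.5, 73.7, 82.6 and 70.2 CPM in the levodopa animals. Its lowest, median and highest values were 52.3, 82.9 and 102 CPM in the 7.5 mg/kg animals and 63.6, 88.6 and 104 CPM in the 15 mg/kg animals. In each trapidil group, 9 of 10 animals lay above the levodopa mean, yet the ranges overlapped. The log2 fold change of Foxp2 was 0.33 ± 0.12 at 15 mg/kg (95% interval 0.09 to 0.58, adjusted p = 0.118) and 0.24 ± 0.12 at 7.5 mg/kg (adjusted p = 0.433). Without levodopa replicate 2 it was 0.26 ± 0.12 at 15 mg/kg (adjusted p = 0.374). Without levodopa replicate 4, the highest levodopa animal for Foxp2, it was 0.41 with an adjusted p of 0.048. That fit called 894 of all genes, the most of the 25 fits that left out 1 library.

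Foxp1, the related forkhead factor, was at 113, 77.8, 116, 126 and 122 CPM in levodopa animals, with lowest, median and highest values of 102, 122 and 133 CPM in the 7.5 mg/kg animals and 104, 131 and 139 CPM in the 15 mg/kg animals. At 15 mg/kg its log2 fold change was 0.18 ± 0.09 (95% interval -0.00 to 0.37, adjusted p = 0.267), and 0.08 without levodopa replicate 2. Bcl11b, also known as CTIP2, is needed for spiny projection neurons to differentiate. It read 533, 344, 553, 546 and 555 CPM in levodopa animals, 418 to 557 CPM in the 7.5 mg/kg animals (median 510) and 486 to 601 CPM in the 15 mg/kg animals (median 541). Its log2 fold changes were 0.11 ± 0.08 at 15 mg/kg (adjusted p = 0.515) and -0.00 ± 0.08 at 7.5 mg/kg (adjusted p = 0.993), and without levodopa replicate 2 the value at 15 mg/kg was -0.00 ± 0.06. Meis2, a homeobox factor, was at 372, 293, 377, 388 and 387 CPM in levodopa animals, 297 to 442 CPM in the 7.5 mg/kg animals (median 404) and 351 to 484 CPM in the 15 mg/kg animals (median 418). For Meis2 the log2 fold change at 15 mg/kg was 0.18 ± 0.08 (95% interval 0.02 to 0.35, adjusted p = 0.21), and 0.12 without levodopa replicate 2.

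Arpp21 encodes a cAMP-regulated phosphoprotein enriched in these neurons. It read 1436, 1368, 1403, 1479 and 1491 CPM in the levodopa animals, with lowest, median and highest values of 1117, 1700 and 1794 CPM in the 7.5 mg/kg animals and 1402, 1677 and 1977 CPM in the 15 mg/kg animals. Levodopa replicate 2 did not stand apart here: the 5 levodopa values were close together, and 9 of 10 animals at 15 mg/kg lay above their mean. The log2 fold change of Arpp21 was 0.22 ± 0.09 at 15 mg/kg (95% interval 0.04 to 0.40, adjusted p = 0.153), 0.21 ± 0.09 without levodopa replicate 2, and 0.15 ± 0.09 at 7.5 mg/kg (adjusted p = 0.491). It was the member that limma-voom with quality weights called, with an adjusted p of 0.0444.

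Cnr1, the CB1 cannabinoid receptor, varied widely from animal to animal, with a coefficient of variation of 37.1%, second to Upb1 at 39.2%. It read 687, 201, 913, 591 and 850 CPM in the levodopa animals, with lowest, median and highest values of 351, 498 and 852 CPM in the 7.5 mg/kg animals and 238, 458 and 816 CPM in the 15 mg/kg animals. The highest animal was 4.54 times the lowest, and all 3 groups overlapped. For Cnr1 the log2 fold change was -0.41 ± 0.27 at 15 mg/kg (95% interval -0.97 to 0.14, adjusted p = 0.416) and -0.30 ± 0.27 at 7.5 mg/kg (adjusted p = 0.683). Without levodopa replicate 2 these were -0.64 ± 0.24 (95% interval -1.14 to -0.14, unadjusted p = 0.0134, adjusted p = 0.268) and -0.52 ± 0.24 (adjusted p = 0.731). Neither fit called the gene, and a difference of 2-fold in Cnr1 lay inside the interval when that animal was left out.

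The remaining shared members were Rasd2, Scn4b, Ano3, Rasgrp2, Actn2 and Ptpn5. Rasd2 encodes the small GTPase Rhes, Scn4b a sodium channel beta subunit, Rasgrp2 a guanine nucleotide exchange factor for Rap, Actn2 an actin-binding protein and Ptpn5 the striatal tyrosine phosphatase STEP. At 15 mg/kg their log2 fold changes ran from 0.01 (Scn4b) to 0.13 (Ptpn5), and none was called. Scn4b shows the role of a single animal: it read 2082, 1126, 2121, 2140 and 2087 CPM in the levodopa animals, with medians of 1874 CPM in the 7.5 mg/kg animals and 1967 CPM in the 15 mg/kg animals. The fold change at 15 mg/kg was 0.01 ± 0.12 on the log2 scale with levodopa replicate 2, and -0.13 ± 0.10 without it. Without that animal the 6 genes ran from -0.13 (Scn4b) to 0.04 (Ptpn5).

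**Figure D3:**
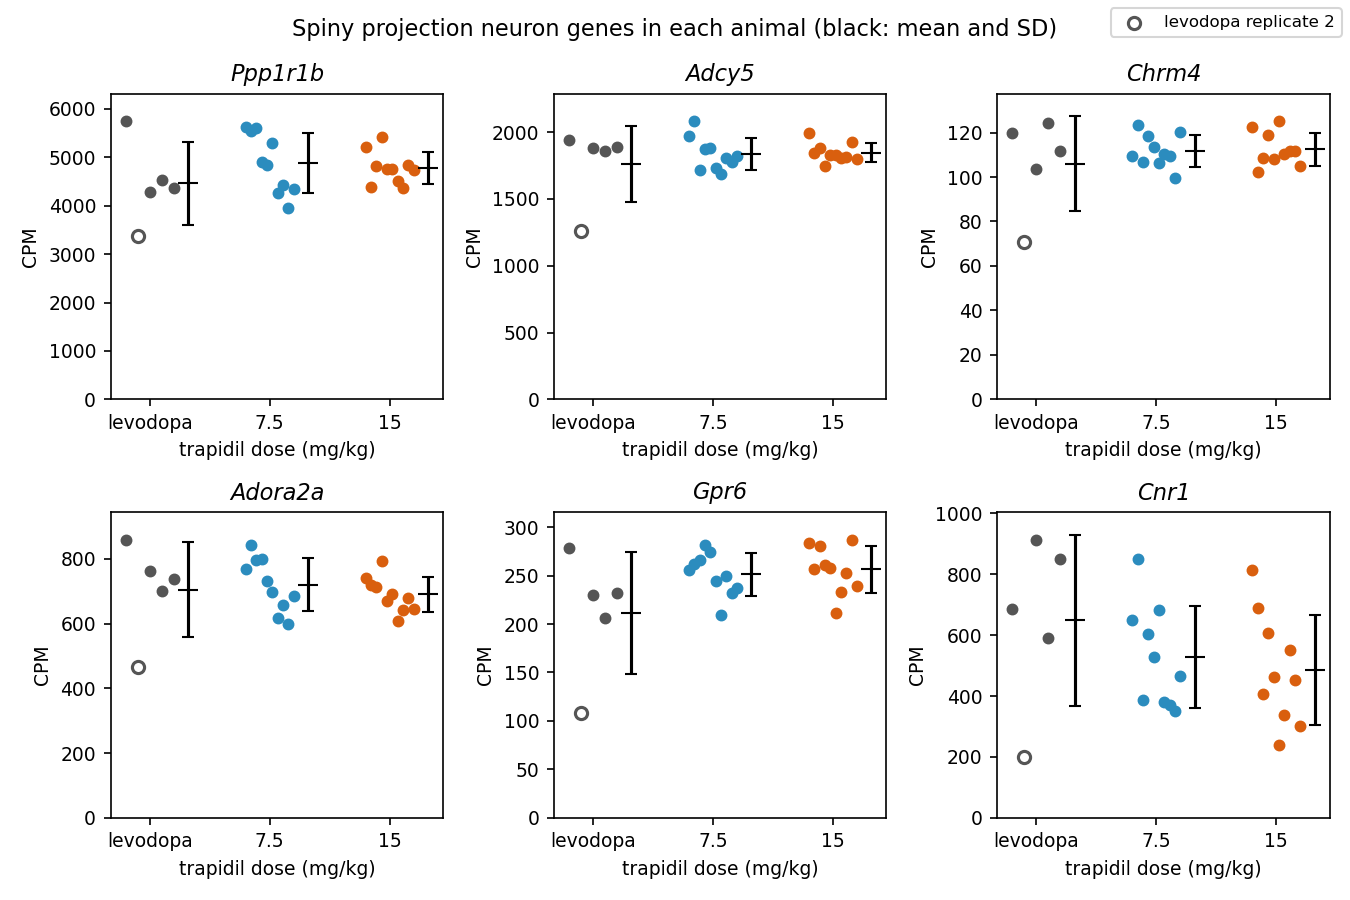
CPM of 6 members in every animal, by group, with the mean and SD in black beside each group; the open circle is levodopa replicate 2. Ppp1r1b, Adcy5, Chrm4 and Adora2a overlap across the 3 groups, Gpr6 has 1 low levodopa animal at 109 CPM, and Cnr1 spreads from 201 to 913 CPM.

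Among the 9 direct pathway genes, 8 had a positive log2 fold change at 15 mg/kg, beside 50.2% of all genes. Their median was 0.08, and none was called. Without levodopa replicate 2, Chrm4, Isl1, Reln and Ebf1 were negative and the other direct genes positive. Chrm4, the muscarinic M4 receptor that opposes D1 signalling, read 120, 70.6, 103, 124 and 112 CPM in levodopa animals, 99.4 to 123 CPM in the 7.5 mg/kg animals (median 110) and 102 to 125 CPM in the 15 mg/kg animals (median 111). Chrm4 had a log2 fold change of 0.08 ± 0.08 at both doses (adjusted p = 0.615 at 15 mg/kg and 0.74 at 7.5 mg/kg), and of -0.03 ± 0.06 at 15 mg/kg without levodopa replicate 2. Isl1, the transcription factor that specifies direct pathway neurons, read 12.2, 8.08, 11.8, 14.3 and 11.6 CPM in levodopa animals, 9.88 to 16.1 CPM in the 7.5 mg/kg animals and 10.5 to 14.3 CPM in the 15 mg/kg animals. Its log2 fold changes were 0.05 ± 0.11 at 15 mg/kg (adjusted p = 0.849) and 0.11 ± 0.11 at 7.5 mg/kg (adjusted p = 0.717), and the groups overlapped throughout. The Isl1 value at 15 mg/kg was -0.05 ± 0.10 without levodopa replicate 2.

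Sfxn1 came closest of all 34 members to the threshold. It encodes sideroflexin 1, a mitochondrial serine transporter. It read 62.2, 58.5, 60.5, 66.3 and 62.5 CPM in levodopa animals, with lowest, median and highest values of 61.5, 65.3 and 70.5 CPM in the 7.5 mg/kg animals and 63.8, 68.5 and 73.2 CPM in the 15 mg/kg animals. All 10 animals at 15 mg/kg lay above the levodopa mean, but levodopa replicate 4 lay within their range. The log2 fold change of Sfxn1 was 0.14 ± 0.05 at 15 mg/kg (95% interval 0.04 to 0.23, adjusted p = 0.0998) and 0.08 ± 0.05 at 7.5 mg/kg (adjusted p = 0.492). Without levodopa replicate 4, the highest levodopa animal for Sfxn1, it was 0.16 with an adjusted p of 0.0473, in the fit that called 894 of all genes. Without levodopa replicate 2 it was 0.12 with an adjusted p of 0.296.

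Asic4, a member of the acid-sensing ion channel family, read 324, 247, 283, 302 and 264 CPM in levodopa animals, with lowest, median and highest values of 265, 307 and 363 CPM in the 7.5 mg/kg animals and 287, 325 and 366 CPM in the 15 mg/kg animals. Again all 10 animals at 15 mg/kg lay above the levodopa mean and the ranges overlapped. Asic4 had a log2 fold change of 0.21 ± 0.07 at 15 mg/kg (95% interval 0.06 to 0.36, adjusted p = 0.11), 0.16 without levodopa replicate 2, and 0.12 ± 0.07 at 7.5 mg/kg (adjusted p = 0.53). The other direct pathway genes were Eya1, Slc35d3, Lmo7, Reln and Ebf1, a transcriptional coactivator, a transporter, a LIM domain protein, the secreted protein reelin and a transcription factor. Their log2 fold changes at 15 mg/kg ran from -0.09 (Ebf1) to 0.16 (Slc35d3 and Lmo7), and from -0.15 (Ebf1) to 0.12 (Eya1) without levodopa replicate 2. Reln ran from 69.5 to 108 CPM at 15 mg/kg, against 66.1, 42.0, 104, 96.1 and 143 CPM in levodopa animals, a wider spread on both sides.

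Of the 8 indirect pathway genes, 4 had a positive and 4 a negative log2 fold change at 15 mg/kg, with a median of 0.01. Without levodopa replicate 2, Gpr6, Upb1 and Ptprm were positive and the other indirect genes negative. Adora2a encodes the adenosine receptor named above. It read 859, 466, 762, 701 and 739 CPM in levodopa animals, with lowest, median and highest values of 600, 713 and 844 CPM in the 7.5 mg/kg animals and 608, 685 and 792 CPM in the 15 mg/kg animals. The levodopa group again spanned both others, and the log2 fold change was -0.03 ± 0.10 at 15 mg/kg (95% interval -0.23 to 0.17, adjusted p = 0.896) and 0.03 ± 0.10 at 7.5 mg/kg (adjusted p = 0.93). The Adora2a value at 15 mg/kg was -0.15 ± 0.08 without levodopa replicate 2 (adjusted p = 0.44).

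Gpr6, an orphan receptor that raises cAMP without a ligand and whose promoter is shown above, read 279, 109, 230, 206 and 232 CPM in levodopa animals. Its lowest, median and highest values were 209, 253 and 282 CPM in the 7.5 mg/kg animals and 211, 257 and 287 CPM in the 15 mg/kg animals. One animal, levodopa replicate 2, had less than the lowest of the trapidil animals by a wide margin, and levodopa replicate 1 lay near their top. The log2 fold change of Gpr6 was 0.28 ± 0.12 at 15 mg/kg (95% interval 0.03 to 0.53, adjusted p = 0.204) and 0.25 ± 0.12 at 7.5 mg/kg (adjusted p = 0.428). Without that animal it was 0.12 ± 0.08 and 0.09 ± 0.08.

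Adk, adenosine kinase, which clears adenosine and in adult brain is also made by astrocytes, was the 1 member with an unadjusted p under 0.05 at 7.5 mg/kg. It read 56.9, 64.8, 56.7, 66.3 and 57.4 CPM in levodopa animals, with lowest, median and highest values of 50.0, 55.1 and 63.0 CPM in the 7.5 mg/kg animals and 50.7, 56.5 and 66.3 CPM in the 15 mg/kg animals. Adk had a log2 fold change of -0.14 ± 0.06 at 7.5 mg/kg (95% interval -0.26 to -0.02, adjusted p = 0.374) and -0.09 ± 0.06 at 15 mg/kg (adjusted p = 0.394). Without levodopa replicate 2 it was -0.11 ± 0.06 at 7.5 mg/kg (edgeR unadjusted p = 0.082) and -0.07 at 15 mg/kg. Ptprm, a receptor-type tyrosine phosphatase, read 92.0, 70.9, 112, 120 and 111 CPM in levodopa animals, 87.5 to 118 CPM in the 7.5 mg/kg animals and 104 to 127 CPM in the 15 mg/kg animals. At 15 mg/kg the log2 fold change of Ptprm was 0.16 ± 0.09 (adjusted p = 0.303), and 0.06 ± 0.07 without levodopa replicate 2.

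Upb1, which encodes beta-ureidopropionase of pyrimidine breakdown, rested on few reads, 13 to 60 per animal. It read 2.31, 0.864, 1.19, 0.792 and 0.85 CPM in levodopa animals, with lowest, median and highest values of 1.08, 1.43 and 2.41 CPM in the 7.5 mg/kg animals and 0.757, 2.00 and 2.96 CPM in the 15 mg/kg animals. Its log2 fold change of 0.58 ± 0.30 at 15 mg/kg had an interval of -0.03 to 1.20 (adjusted p = 0.287), so a difference of 2-fold was within its error. It was 0.49 without levodopa replicate 2. Gpr52, Sp9 and Plxdc1, a receptor that raises cAMP, a transcription factor and a plexin domain protein, had log2 fold changes of 0.06, -0.10 and -0.05 at 15 mg/kg, and of -0.10, -0.20 and -0.15 without levodopa replicate 2. Calb1, the calcium-binding protein calbindin of the matrix, read 239, 174, 246, 268 and 214 CPM in levodopa animals, with lowest, median and highest values of 168, 262 and 298 CPM in the 7.5 mg/kg animals and 221, 261 and 326 CPM in the 15 mg/kg animals. Calb1 had a log2 fold change of 0.21 ± 0.11 at 15 mg/kg (95% interval -0.02 to 0.44, adjusted p = 0.297) and 0.14 ± 0.11 at 7.5 mg/kg (adjusted p = 0.633), with 0.13 ± 0.11 at 15 mg/kg without levodopa replicate 2.

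**Figure D4:**
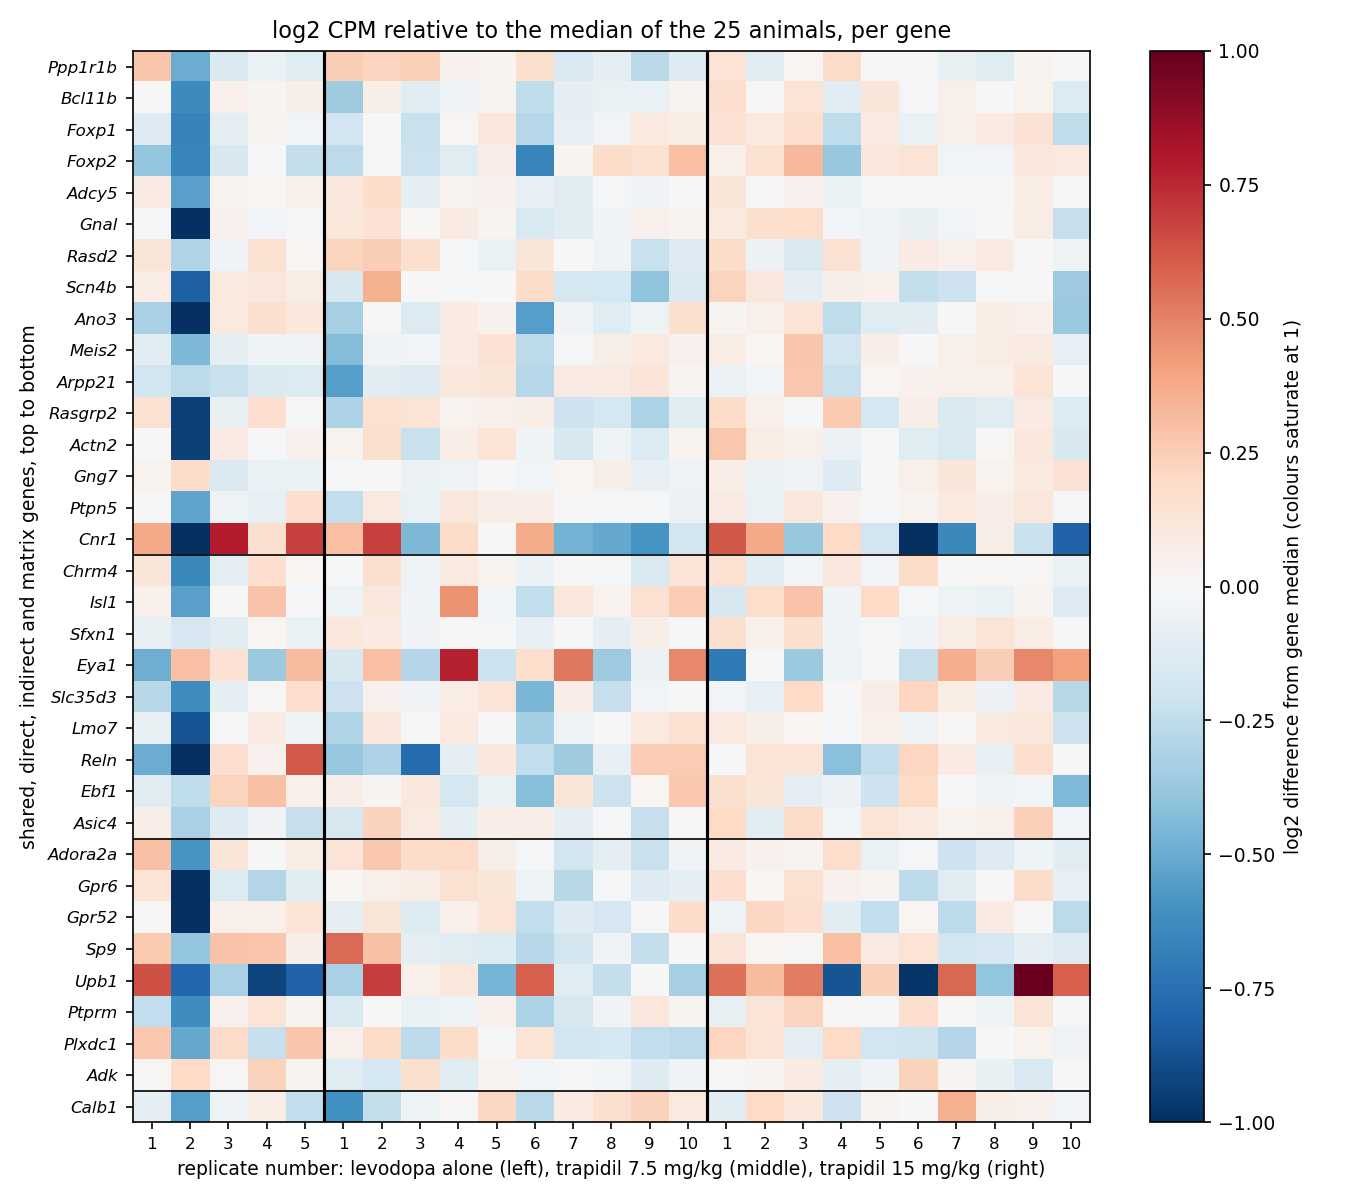
Log2 CPM of each gene relative to its median over all 25 animals, 1 row per gene and 1 column per animal; vertical lines separate levodopa alone, 7.5 mg/kg and 15 mg/kg, horizontal lines separate shared, direct, indirect and matrix genes, and colours saturate at a difference of 1. The column of levodopa replicate 2 is blue for most genes, and Cnr1 and Upb1 vary most from animal to animal.

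At 7.5 mg/kg none of the members passed the test either, in a comparison that shares its 5 levodopa animals with the one above. edgeR called 0 of 34 members, beside 0.0283% of all genes, and 26 of 34 log2 fold changes were above 0, against 51.1% of all genes, with a median of 0.08 and a range of -0.30 (Cnr1) to 0.36 (Upb1). At an unadjusted p under 0.05, 0 members were higher and 1 was lower, beside 5.02% and 6.64% of all genes. Both DESeq2 and limma-voom called 0, beside 54 and 102 of all 14142 genes. No member had ranges that did not overlap, beside 0.0283% of all genes wholly higher and 0.0636% wholly lower. The intervals of 32 members lay within 1.5-fold and of 18 within 1.25-fold. Without levodopa replicate 2 the median was -0.02, 14 of 34 log2 fold changes were above 0 and the sign of 14 differed, with the intervals of 30 members within 1.5-fold. In that fit the 1 member with an edgeR unadjusted p under 0.05 was Cnr1 (lower, p = 0.0405) in place of Adk. The share of all genes under 0.05 in that fit is not given here.

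Between the doses, 15 mg/kg against 7.5 mg/kg, the members' differences were the smallest of the 3 comparisons, and so were those of all genes. The median absolute log2 fold change between the doses was 0.052 for members and 0.057 for all genes. Against levodopa alone these were 0.110 and 0.113 at 15 mg/kg, and 0.097 and 0.098 at 7.5 mg/kg. The comparison between the doses sets the 2 trapidil groups against each other, but the levodopa animals still helped set the spread used in the test. edgeR called 0 of 34, beside 0.0283% of all genes. No member had an unadjusted p under 0.05, beside 3.63% of all genes (1.49% higher, 2.14% lower). Without levodopa replicate 2, 1 member was higher at an unadjusted p under 0.05 and 0 were lower. The share of all genes in that fit is not given here. DESeq2 and limma-voom called 0 as well, beside 6 and 13 of all 14142 genes. The log2 fold changes ran from -0.12 (Cnr1) to 0.22 (Upb1) with a median of 0.04, and 25 of 34 were above 0, against 48.8% of all genes. The intervals of 30 members lay within 1.25-fold and of 33 within 1.5-fold, Upb1 being the exception. Cnr1 had a log2 fold change of -0.12 ± 0.23 (95% interval -0.58 to 0.35), Bcl11b of 0.11 ± 0.07 and Ppp1r1b of -0.03 ± 0.08, each with an adjusted p of 0.999.

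**Figure D5:**
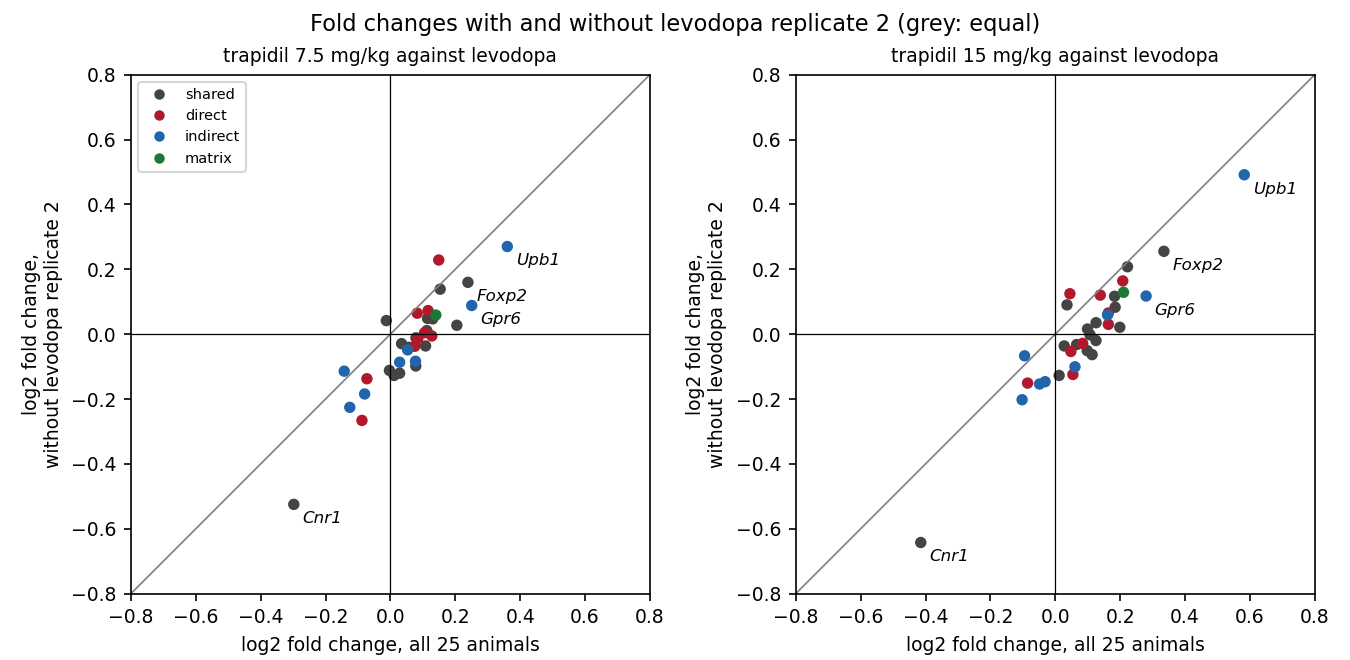
Log2 fold change of each member with all 25 animals (horizontal axis) and without levodopa replicate 2 (vertical axis), for 7.5 mg/kg (left) and 15 mg/kg (right) against levodopa alone; the grey line marks equal values. Most points lie below the line, and Cnr1 lies at -0.41 with all animals and at -0.64 without levodopa replicate 2 at 15 mg/kg.

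The balance of the 2 pathways overlapped across groups. The mean log2 CPM of the direct genes minus that of the indirect genes, computed per animal, ran from -0.44 to -0.11 in levodopa animals, from -0.34 to -0.01 at 7.5 mg/kg and from -0.27 to -0.06 at 15 mg/kg. The medians were -0.14, -0.20 and -0.19. Levodopa replicate 2, at -0.12, lay within the range of its group by this measure. By the difference of Drd1 and Drd2, the dopamine receptors that define the pathways and are not on the list, it was the lowest of its group, at a log2 CPM difference of -1.44 against -1.32 to -0.71 in the other 4. That difference ran from -1.52 to -0.77 at 7.5 mg/kg and from -1.30 to -0.81 at 15 mg/kg, overlapping the levodopa animals. Drd1 and Drd2 had log2 fold changes of 0.10 ± 0.13 (adjusted p = 0.722) and 0.09 ± 0.09 (adjusted p = 0.619) at 15 mg/kg against levodopa alone.

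Other signalling genes of the same neurons were counted beside the identity genes, and 2 of 36 tested rose at 15 mg/kg while 0 fell, beside 0.304% of all genes called higher and 1% called lower. DESeq2 called 3 higher, Crym in addition, beside 216 of all 14142 genes higher. limma-voom called 6 (Rgs14, Oprk1, Crym, Gpr149, Oprd1 and Strip2). Of these, 5 were higher and 1 lower, beside 298 of all genes higher and 417 lower. Rgs14, a regulator of G protein signalling, ran from 85.1 to 144 CPM (median 104) at 15 mg/kg, against 79.1, 62.7, 77.9, 78.4 and 79.4 CPM in levodopa animals, and these ranges did not overlap. Its log2 fold change was 0.56 ± 0.12 (adjusted p = 0.0267), and 0.34 ± 0.12 at 7.5 mg/kg (adjusted p = 0.299). Oprk1, the kappa opioid receptor, ran from 12.3 to 20.2 CPM (median 16.4) at 15 mg/kg, against 11.5, 5.24, 10.3, 13.7 and 11.2 CPM in levodopa animals, with some overlap. Its log2 fold change was 0.68 ± 0.17 (adjusted p = 0.0451), and 0.56 ± 0.17 at 7.5 mg/kg (adjusted p = 0.229).

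Neither call held in every fit. Without levodopa replicate 2, 0 of the 36 genes were called, with Rgs14 at 0.50 and Oprk1 at 0.52, and the list's median was -0.02, against 0.11 with all animals. Rgs14 also lost its call without levodopa replicate 3 (0.57) or without replicate 3 at 15 mg/kg (0.52). Oprk1 also lost its call without levodopa replicate 1, 3 or 5, without replicate 3, 4, 7 or 8 at 7.5 mg/kg, and without each of the 15 mg/kg animals in turn but for replicate 4, at log2 fold changes of 0.65 to 0.72. At 7.5 mg/kg edgeR called 0 of 36, beside 0.0283% of all genes. At an unadjusted p under 0.05, 6 were higher and 0 lower, beside 5.02% and 6.64% of all genes. DESeq2 called 0 there as well, beside 54 of all 14142 genes. limma-voom called 2 higher, Crym and Oprk1, beside 19 of all genes higher and 83 lower. Of 9 striosome genes, 0 were called at 15 mg/kg by edgeR, DESeq2 or limma-voom. At an unadjusted p under 0.05, 1 was higher and 0 lower, beside 8.26% and 11.2% of all genes. Lypd1 had the smallest p (log2 fold change 0.17 ± 0.07, adjusted p = 0.171).

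Markers of other cell types were counted in the same way. Of 12 oligodendrocyte markers, 6 fell at 15 mg/kg and all 12 had negative log2 fold changes, with a median of -0.60, in a direction opposite to most members. Of all genes, 1% were called lower and 49.8% had a negative log2 fold change. DESeq2 called 8 of the 12 and limma-voom 9, all lower, beside 411 and 417 of all 14142 genes lower. Opalin, a myelin protein, averaged 115 ± 25.9 CPM (SD, n = 10) at 15 mg/kg and 192 ± 40.3 CPM in levodopa animals (n = 5), and its log2 fold change was -0.74 ± 0.16 with an adjusted p of 0.0217. The summed level of the 12 ran from 6689 to 14081 CPM at 15 mg/kg and from 10921 to 19950 CPM in levodopa animals, and none of the 12 was at 0 in all libraries. The summed level of 10 astrocyte markers ran from 3108 to 4728 CPM at 15 mg/kg and from 3812 to 7421 CPM in levodopa animals. Without levodopa replicate 2, edgeR called 0 of the 12 oligodendrocyte markers, 10 were lower and 0 higher at an unadjusted p under 0.05, and the median was -0.50. Without levodopa replicate 3 it also called 0, with a median of -0.57, and leaving out any other 1 library gave 1 to 11 calls, all 12 markers staying negative. With the oligodendrocyte marker score as a covariate, the members' median log2 fold change at 15 mg/kg was 0.00 and 18 of 34 were above 0. That score, the mean standardised log2 CPM of the 12 markers, itself differed between the groups. It averaged 0.97 in levodopa animals, 0.10 at 7.5 mg/kg and -0.58 at 15 mg/kg. The score and the treatment therefore cannot be told apart in that fit. Of 6 endothelial markers, 2 fell, and of 7 oligodendrocyte precursor markers, 1 fell. Without levodopa replicate 2 edgeR called 0 in both lists, with 2 lower in each at an unadjusted p under 0.05. At that threshold 11.2% of all genes were lower with all 25 animals, and the share without levodopa replicate 2 is not given here. In the endothelial and precursor lists no gene was called in 16 of the 25 fits that left out 1 library. DESeq2 called 4 endothelial and 2 precursor markers, beside 411 of all genes lower. limma-voom called 1 of each, lower, beside 417 of all genes.

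Of 10 astrocyte, 8 microglial, 12 interneuron and 7 cortical neuron markers tested, edgeR called 0 in each list at 15 mg/kg. At an unadjusted p under 0.05, 3 astrocyte, 4 microglial, 2 interneuron and 2 cortical markers were lower, and 1 interneuron marker was higher. Of all genes, 11.2% were lower and 8.26% higher at that threshold. DESeq2 called 0 in these lists, and limma-voom called 0 astrocyte, microglial and interneuron markers. Npy, an interneuron marker, was listed at 0 in all 25 libraries. The cortical marker Slc17a7, a vesicular glutamate transporter, had 684 reads in levodopa replicate 5 and 503 and 512 in replicates 1 and 6 at 7.5 mg/kg, against at most 90 in every other library. Slc17a6 and Ttr, of thalamic neurons and choroid plexus, had 178 and 379 reads in levodopa replicate 2, against at most 19 and 35 elsewhere. These were the 1 called gene of 7 in each of their lists at 15 mg/kg, both lower, and neither was called without levodopa replicate 2. Without replicate 1 or 6 at 7.5 mg/kg, both genes failed the filter on low counts and were not tested. The same held for Ttr without replicate 8 or 9 at that dose. The lists as a whole differed in direction. Of 7 pallidal, thalamic and hypothalamic markers, 6 were lower and 0 higher at an unadjusted p under 0.05, beside 11.2% and 8.26% of all genes. Their summed level ran from 18.2 to 27.2 CPM at 15 mg/kg and from 28.8 to 51.2 CPM in levodopa animals, highest in replicate 2. Of 7 choroid plexus and ependymal markers, 4 were higher and 1 lower, beside the same shares, with a median log2 fold change of 1.13. Their sum ran from 15.8 to 37.8 CPM at 15 mg/kg and from 2.23 to 38.4 CPM in levodopa animals. DESeq2 called 2 pallidal, thalamic and hypothalamic markers and 1 choroid plexus and ependymal marker, all lower, beside 411 of all 14142 genes lower. limma-voom called 3 of the first list, 1 higher and 2 lower, and 3 of the second, all higher. It called 298 of all genes higher and 417 lower. Of 4 dopamine neuron markers edgeR called 0, with 1 lower at an unadjusted p under 0.05, and DESeq2 and limma-voom called 1. The part of these cells in the members' values was not tested.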

How the data were processed

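Polyadenylated RNA from 25 striata was sequenced, and the table the authors deposited holds raw read counts per gene and library. FastQC, STAR, HTSeq and the Rnor_6.0 build are named, per the submitters' processing notes; versions, annotation and strand setting are not given in the sources used here, so reads of overlapping or antisense genes cannot be told apart. Libraries were grouped by their labels, with an animal taken per library because the series describes randomised rats; p-values measure the spread between these libraries. No batch was given. No 2 libraries of a group agreed within sampling noise (lowest chi-square per degree of freedom 4.83, over genes with at least 20 reads).

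edgeR 4.0.16 (R 4.3.3) was used: filterByExpr, TMM scaling and the quasi-likelihood test on all 25 libraries with group as the factor, two-sided, Benjamini-Hochberg adjusted over 14142 genes, threshold 0.05. Every adjusted p is from this test unless another tool is named. The standard error is the log2 fold change over the square root of F. CPM was computed from the counts with TMM factors; per-animal log2 CPM used a pseudocount of 2. Alternatives were DESeq2 1.42.0, limma 3.58.1 (voom with quality weights), other scalings, filters, a threshold of 0.10, only the groups compared, a replicate block, marker scores as covariates, and leaving out libraries. The scripts were tested on simulated counts.

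The members, lists and comparisons were chosen with earlier results of these data known. Full values are given for called members, the 2 members of smallest p in each pathway group and comparison, and 10 set genes (Ppp1r1b, Bcl11b, Foxp1, Adcy5, Cnr1, Chrm4, Isl1, Adora2a, Gpr6 and Calb1); of other lists, called genes (at most 4) or the 1 of smallest p. Gnal, Gng7, Scn4b, Reln, Drd1, Drd2, Crym, Gpr149, Oprd1, Strip2, Slc17a7, Slc17a6 and Ttr were named after their values were seen. Promoters were matched by symbol in the RefSeq GRCr8 table. The limma-voom result for the cortical marker list is not reported here.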

Additional observations from a re-analysis of the deposited data

Results flagged for a closer look

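In each group, the highest and lowest animal of each member was set against its nearest neighbour, with Dixon's 95% criterion. Of 102 sets of values, 12 held such an animal. The criterion flags about 1 in 20 single sets by chance, but these sets share the same animals and are not independent. The count of 12 therefore cannot be set against that rate. In 9 of the 12 the animal was levodopa replicate 2, as the lowest. The values there were 344 CPM for Bcl11b (nearest other animal 533), 77.8 for Foxp1 (113), 1258 for Adcy5 (1856), 68.7 for Gnal (164) and 1126 for Scn4b (2082). They were 293 CPM for Meis2 (372), 83.7 for Actn2 (158), 103 for Lmo7 (179) and 30.8 for Gpr52 (64.6).

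The other 3 were single genes in other animals. Ptpn5 was at 780 CPM in replicate 1 at 7.5 mg/kg (nearest 881), Lmo7 at 163 CPM in replicate 10 at 15 mg/kg (nearest 183), and Upb1 at 2.31 CPM in levodopa replicate 1, its highest (nearest 1.19).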

How the results depend on the processing

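The count of members called stayed at 0 in all 3 comparisons under other scalings, other filters, DESeq2, the replicate block, both marker scores, fits of only the groups compared, and with levodopa replicate 2 and replicate 1 at 7.5 mg/kg both left out. It was 1 at 15 mg/kg against levodopa with limma-voom (Arpp21) and with a threshold of 0.10 (Sfxn1). Leaving out 1 library at a time, it ran from 0 to 2 at 15 mg/kg, beside 9 to 894 of all genes. It stayed at 0 at 7.5 mg/kg and between the doses, beside 1 to 70 and 4 to 8 of all genes. The members' median ran from 0.01 to 0.14 at 15 mg/kg and from -0.02 to 0.12 at 7.5 mg/kg in those fits, and from 0.02 to 0.05 between the doses.

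Counts over all genes were less stable. At 15 mg/kg against levodopa, 185 genes were called (43 higher, 142 lower), 627 with DESeq2 (216 higher, 411 lower), 715 with limma-voom (298 higher, 417 lower), 448 with only those groups, 101 and 8 with the cortical and oligodendrocyte scores, 76 with both libraries left out, and 862 at the 0.10 threshold. At 7.5 mg/kg against levodopa, 4 were called, 7 without a filter, 54 with DESeq2, 102 with limma-voom, 1 with only those groups, 27 with both libraries left out and 11 at the 0.10 threshold. Between the doses, 4 were called, 13 with limma-voom, 7 with the oligodendrocyte score and 9 with both libraries left out. Leaving out 1 library at a time gave 9 to 894, 1 to 70 and 4 to 8 genes; at 15 mg/kg the lowest count was without levodopa replicate 3 and the highest without levodopa replicate 4, and levodopa replicate 2 left out gave 20. The causes were not tested.

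Replicate numbers did not pair the animals: the correlation of same-numbered deviations ran from -0.42 to 0.21. The replicate block called 0 genes at 15 mg/kg and 0 at 7.5 mg/kg against levodopa. Rgs14 and Oprk1 also lost their calls under the block, at 0.49 and 0.67, and with the oligodendrocyte score, at 0.23 and 0.23. The oligodendrocyte score itself differed between the groups and cannot be told apart from treatment there. Single genes were followed for the 34 members and for Rgs14, Oprk1, Opalin, Slc17a6, Ttr and the endothelial gene Slco1a4. Over all comparisons and alternatives, 65 values lost a call, 6 gained one, 24 moved by more than the spread between animals, and none turned sign while called. No member was called in the main fit, so the lost calls were all of genes outside the list. With 5 levodopa animals, the 95% interval lay within 1.25-fold for 15 of 34 members at 15 mg/kg, and reached past it for the others.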
